A study of Mus musculus with 16 samples.

Results

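The genes described here encode molecules through which a cell addresses immune cells: the adhesion molecule Icam1, the checkpoint ligand Cd274 (PD-L1), the cytokines Csf1, Tnf, Il15, Lif, Il17c and Tnfsf10 (TRAIL), and Pstpip2, an intracellular adaptor protein. They are 9 of the 55414 genes in the counts table, picked by name, in part because of the size of the Icam1 increase after TNF. Because that increase helped to choose them, their values in PBS+TNF against PBS+PBS are a description and carry no p-value. A filter on low counts left 11809 genes for testing, and 8 of the 9 were among them. The exception was Il17c, with 25 counts in all libraries together.

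RNA was sequenced from Paneth cells sorted out of the mouse small intestine, which the methods of the study describe as cells of C57BL/6J mice isolated by FACS. Each mouse was injected with DEX or its PBS control and, after 1 h, with tumour necrosis factor (TNF) or PBS, and the cells were taken another 3 h on. The 4 groups, PBS+PBS, DEX+PBS, PBS+TNF and DEX+TNF, hold 4 libraries each, called biological replicates by the labels, and all mice, controls included, had received both injections. No transgene, deletion or other agent is named for any group, and the ages of the mice and the doses are not given in the sources used here. The labels do not write DEX out. It usually stands for dexamethasone, a synthetic glucocorticoid.

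TNF binds its receptors on epithelial and other cells and activates NF-kB, a transcription factor that enters the nucleus once its inhibitor is degraded and switches on genes for adhesion molecules, cytokines and its own inhibitor. ICAM-1 holds leukocytes through their beta2 integrins, PD-L1 restrains T cells through the receptor PD-1, and the secreted or membrane-bound cytokines act on macrophages, lymphocytes or the epithelium itself. Glucocorticoids act through the glucocorticoid receptor and are known for holding down many NF-kB targets.

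Library totals ran from 7286307 to 15832111 counts. Values are given as normalized CPM, that is, counts per 1000000 of a library size scaled with the trimmed mean of M-values (TMM) factor, which ran from 0.418 to 1.50. A count of 0 in a library allows up to 3 counts, or 0.149 to 0.578 CPM depending on the library, a limit that covers counting error only. The 12 Paneth cell markers took 44.4% to 66.8% of the counts. DEX+TNF 3 and DEX+TNF 4 stood apart from the other libraries labelled with TNF. Nfkbia, the gene of the NF-kB inhibitor IkB-alpha, had 330 and 382 CPM in libraries 1 and 2 of DEX+TNF and 28.3 and 41.0 CPM in 3 and 4. The PBS+TNF libraries held 277 to 337 CPM of it, and those without TNF 15.6 to 27.3 CPM. All groups are used as labelled. Why these 2 libraries differed from DEX+TNF 1 and 2, including whether their mice had received TNF as labelled, was not tested. Every value of DEX+TNF below depends on these libraries, so the fitted differences of the genes are given with and without each of the 2. As the 2 stood out by their low values, p-values of fits that leave out DEX+TNF 3 or DEX+TNF 4 are descriptions only. The summed level of the 8 tuft cell markers was 2.18, 0.323, 206 and 759 CPM in DEX+TNF 1 to 4 and 22.2, 5.25, 97.7 and 161 CPM in PBS+TNF 1 to 4. The leukocyte marker Ptprc was at 0, 0, 5.82 and 21.0 CPM in the former and at 0, 0, 3.94 and 3.91 CPM in the latter. The 12 enterocyte markers summed to 550 to 599 CPM in PBS+PBS, 455 to 611 in DEX+PBS and 232 to 401 in PBS+TNF, lower than in PBS+PBS without overlap, and to 375, 369, 318 and 943 CPM in DEX+TNF 1 to 4. What part these had in the results was not tested. In bulk RNA, fewer cells that carry a transcript cannot be told apart from less of it per cell.

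Leukocytes and vessels carry several of the 9 genes, so their markers were summed as well. Of 32 leukocyte markers, 15 had no count in any library, among them Cd3e, Cd8a, Itgb2 and S100a8. In DEX+TNF 4, 15 of the 32 were detected, against 2 to 7 in each other library. The summed level was 24.3 to 118 CPM, and in every library but DEX+TNF 4 most of it came from Lyz2, a near-copy of the Paneth cell gene Lyz1. In DEX+TNF 4 the other markers, at 27.7 CPM together, gave more than Lyz2. Without Lyz2, a sum added after the values had been seen, PBS+PBS had 0.600 to 3.89 CPM, DEX+PBS 1.51 to 4.37, PBS+TNF 5.55 to 13.0 and DEX+TNF 3.15 to 27.7. The 16 endothelial and stromal markers, 6 of them at 0 throughout (Cdh5, Kdr, Tie1, Col1a2, Col3a1 and Lum), summed to 0.857 to 4.52, 1.60 to 4.58, 4.16 to 8.09 and 1.12 to 5.48 CPM in the same order of groups. Between PBS+PBS and PBS+TNF the former sum did not overlap and the latter did, and their part in the values below was not tested.

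Promoters of 5 of the genes are shown because they differ in the motifs of the transcription factors that TNF and interferons act through. Each window runs from 250 bases before the start of the Ensembl canonical transcript to 50 bases after it, read from the GRCm39 genome with GENCODE M39 starts, 5′ to 3′ on the strand of the gene. Capitals mark a match to a kappaB consensus in Icam1 and Csf1, to TATAAA in Tnf and to the interferon response motif (GAAA and GAAA spaced by 2 bases) in Cd274 and Il15. All but that in Tnf are matches of the opposite strand, so the capitals show the motif's reverse complement.

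Icam1 (chr9:20926422-20926721, plus strand): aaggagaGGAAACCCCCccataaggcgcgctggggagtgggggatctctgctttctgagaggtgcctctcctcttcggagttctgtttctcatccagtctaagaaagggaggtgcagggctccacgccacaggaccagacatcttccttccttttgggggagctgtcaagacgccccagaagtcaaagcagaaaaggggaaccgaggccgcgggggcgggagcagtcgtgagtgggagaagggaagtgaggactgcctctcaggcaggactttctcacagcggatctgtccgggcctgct
Csf1 (chr3:107667757-107668056, minus strand): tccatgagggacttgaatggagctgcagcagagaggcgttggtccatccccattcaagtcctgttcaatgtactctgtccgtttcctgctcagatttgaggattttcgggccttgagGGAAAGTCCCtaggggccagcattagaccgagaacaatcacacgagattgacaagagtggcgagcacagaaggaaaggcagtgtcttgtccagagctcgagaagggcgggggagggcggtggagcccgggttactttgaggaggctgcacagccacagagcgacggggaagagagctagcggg
Tnf (chr17:35420934-35421233, minus strand): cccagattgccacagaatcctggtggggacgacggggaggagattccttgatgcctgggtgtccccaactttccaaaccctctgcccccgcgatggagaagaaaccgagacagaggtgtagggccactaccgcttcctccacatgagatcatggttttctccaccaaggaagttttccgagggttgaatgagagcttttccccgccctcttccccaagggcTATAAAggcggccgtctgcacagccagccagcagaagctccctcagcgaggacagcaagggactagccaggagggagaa
Cd274 (chr19:29344279-29344578, plus strand): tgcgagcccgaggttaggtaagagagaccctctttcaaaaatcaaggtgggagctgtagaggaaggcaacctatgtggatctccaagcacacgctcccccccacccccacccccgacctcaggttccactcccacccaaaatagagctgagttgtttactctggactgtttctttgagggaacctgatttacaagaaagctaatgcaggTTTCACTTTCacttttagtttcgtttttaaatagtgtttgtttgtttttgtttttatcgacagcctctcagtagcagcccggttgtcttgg
Il15 (chr8:83129802-83130101, minus strand): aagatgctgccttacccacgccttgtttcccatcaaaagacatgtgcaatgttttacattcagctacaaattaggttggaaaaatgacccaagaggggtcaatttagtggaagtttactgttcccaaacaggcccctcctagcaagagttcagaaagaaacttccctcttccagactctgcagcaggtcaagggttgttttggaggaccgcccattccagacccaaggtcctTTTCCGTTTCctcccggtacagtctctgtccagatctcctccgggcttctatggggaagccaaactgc

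The windows of all 9 genes were searched on both strands for 6 motifs, and no match overlapped a match to another motif. A kappaB consensus of 10 bases stood in 2 of the 9, at -243 to -234 in Icam1 and at -133 to -124 in Csf1, counted from the start, and in 4.87% of 21757 promoters of the same length. The interferon response motif was found in Cd274 at -41 to -32 and in Il15 at -18 to -9, and in 3.84% of all promoters. TATAAA stood at -29 to -24 in Tnf and at -248 to -243 in Il17c, and in 13.2% of all. The AP-1 motif TGANTCA, which reads the same on both strands, was present in Lif at -217 to -211 and in 7.15% of all. Neither the STAT motif TTCNNNGAA (8.82% of all promoters) nor the glucocorticoid response element, AGNACA and TGTNCT spaced by 3 bases (0.0322%), was matched in any of the 9 windows. Matches are letters in a window of 300 bases. They do not show binding, and a window without one says nothing about the factor.

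**Figure D1:**
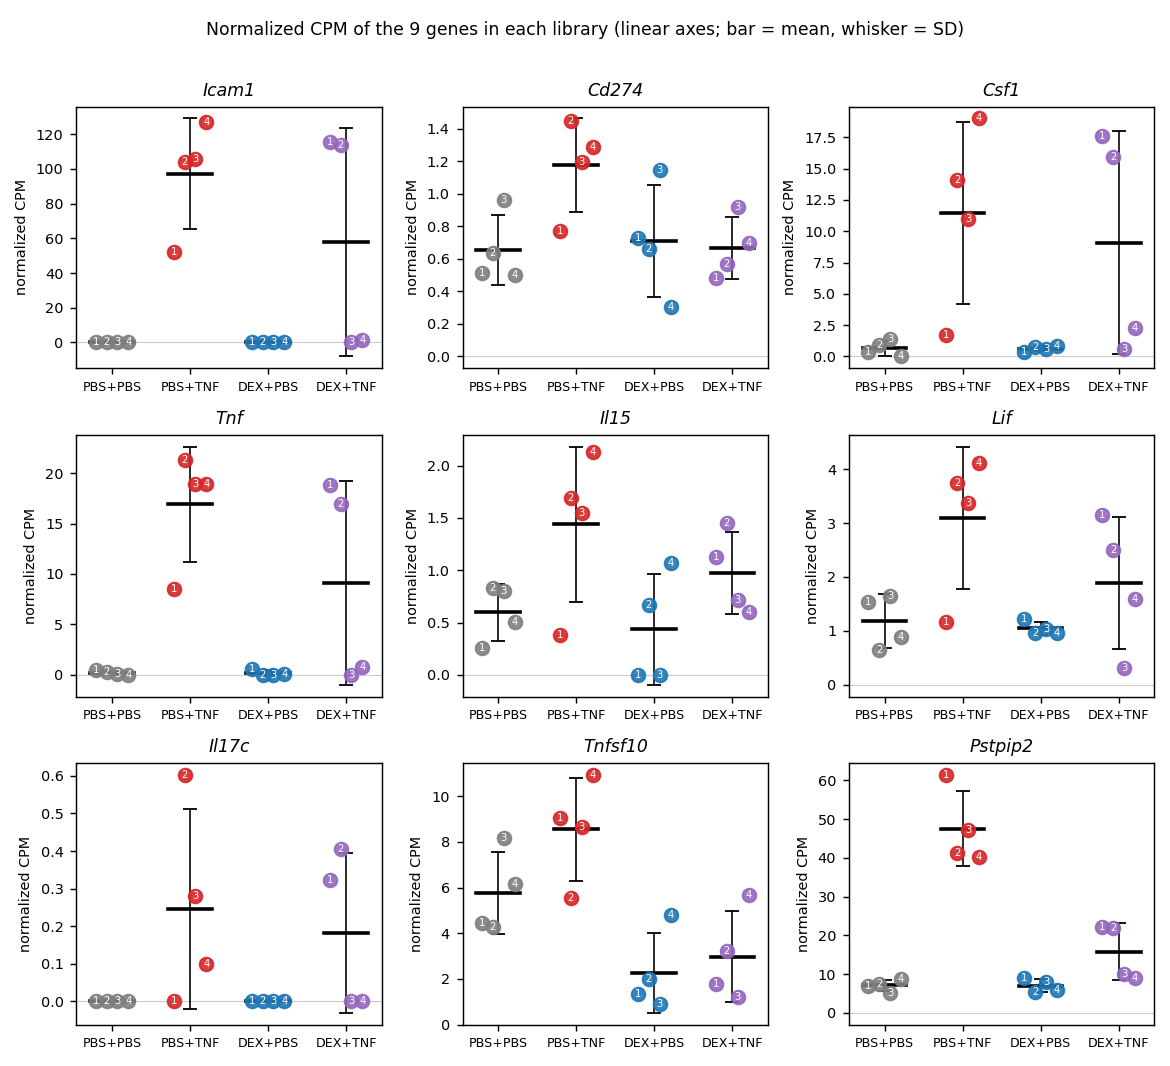
Normalized CPM (vertical axes, linear) of each gene in the 4 groups of 4 libraries. Points are libraries with their replicate number, bars are means and whiskers are SDs. Icam1, Csf1, Tnf and Pstpip2 are higher in every PBS+TNF than in every PBS+PBS library, and in DEX+TNF libraries 1 and 2 lie above 3 and 4 for each of these genes.

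Icam1 (ENSMUSG00000037405, chromosome 9, 20926672 to 20940113, plus strand, GRCm39) encodes the ligand of the leukocyte integrins LFA-1 and Mac-1. It was at 0.257, 0, 0.107 and 0 CPM in PBS+PBS 1 to 4 and at 52.2, 104, 106 and 127 CPM in PBS+TNF 1 to 4. From next to no counts it came to a mean of 97.3 ± 31.8 CPM (SD, n = 4), with no overlap between the groups. The summed counts rested on 5 counts in PBS+PBS and 6071 in PBS+TNF, a ratio of 1167 after scaling, with an exact 95% interval of 500 to 3597 that covers counting error only. After DEX, Icam1 was at 0.121, 0.241, 0 and 0.255 CPM in DEX+PBS and at 116, 114, 0.102 and 1.40 CPM in DEX+TNF. DEX+TNF 1 and 2 therefore fell inside the PBS+TNF range, DEX+TNF 4 lay above all libraries not given TNF, and DEX+TNF 3 lay among these.

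The response to TNF in mice given DEX was measured in 8 other libraries, although the genes were chosen with earlier results of all libraries known. For Icam1 the log2 fold change of DEX+TNF against DEX+PBS was 8.24 (SE 1.61), with an adjusted p of 0.0456 in edgeR's quasi-likelihood test. Icam1 and Tnf passed the low-count filter through the PBS+TNF libraries and would not have passed it in the 2 DEX groups alone. Their p-values in this contrast are therefore not independent of the choice of the genes. Cd274 would not have passed the filter in these 2 groups either. The Icam1 groups overlapped because of DEX+TNF 3. Without that library the log2 fold change was 8.65 (SE 1.17, adjusted p = 0.00145 by edgeR), and without DEX+TNF 4 it was 8.65 (SE 1.32, adjusted p = 0.00597 by edgeR). The call was lost when any other single library was left out, with edgeR adjusted p-values up to 0.199, and without the low-count filter (adjusted p = 0.162 by edgeR). For DEX itself Icam1 did not pass the test. The difference on the log2 scale was 0.91 (SE 2.52, adjusted p = 1 by edgeR) in DEX+PBS against PBS+PBS and -0.76 (SE 1.03, adjusted p = 0.826 by edgeR) in DEX+TNF against PBS+TNF. The latter was -0.34 without DEX+TNF 3 (SE 0.79) and -0.34 without DEX+TNF 4 (SE 0.89). The standard errors leave room for sizeable differences in either direction.

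Cd274 (ENSMUSG00000016496, chromosome 19, 29344529 to 29365495, plus strand) gave 178 counts in all. Its levels were 0.514, 0.638, 0.961 and 0.502 CPM in PBS+PBS, 0.771, 1.45, 1.20 and 1.29 CPM in PBS+TNF, 0.728, 0.663, 1.15 and 0.306 CPM in DEX+PBS and 0.484, 0.566, 0.919 and 0.698 CPM in DEX+TNF. Every pair of groups overlapped. Fitted log2 differences were 0.84 (SE 0.49) for PBS+TNF against PBS+PBS, and -0.06 for DEX+TNF against DEX+PBS (adjusted p = 0.997 by edgeR). Without DEX+TNF 3 and 4 in turn the latter was -0.23 and -0.07. For DEX+TNF against PBS+TNF the difference was -0.84 (SE 0.49, adjusted p = 0.532 by edgeR), and -1.02 and -0.86 without these libraries in turn. The checkpoint ligand thus had neither the size nor the clear separation of the Icam1 increase. Plgrkt, on the opposite strand, shares 219 of its 4081 exon bases and had 2059 counts. How reads were assigned to strands is not stated, so reads from overlapping genes cannot be told apart.

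Tnf (ENSMUSG00000024401, chromosome 17, 35418357 to 35420983, minus strand) encodes the cytokine that was injected. Its transcript was at 0.428, 0.319, 0.107 and 0 CPM in PBS+PBS and at 8.48, 21.3, 18.9 and 19.0 CPM in PBS+TNF, with no overlap. With 12 counts in PBS+PBS and 1049 in PBS+TNF, the scaled ratio was 84.0, with an exact 95% counting interval of 47.9 to 163. After DEX it was at 0.607, 0, 0 and 0.051 CPM in DEX+PBS and at 18.8, 17.0, 0 and 0.798 CPM in DEX+TNF. As for Icam1, libraries 1 and 2 of DEX+TNF fell inside the PBS+TNF range, and 3 and 4 were near the libraries without TNF. For DEX+TNF against DEX+PBS the log2 fold change was 6.13 (SE 1.35), just short of the threshold (adjusted p = 0.0734 by edgeR). Without DEX+TNF 3 it was 6.55 (SE 1.04, adjusted p = 0.00362 by edgeR), and without DEX+TNF 4 it was 6.55 (SE 1.20, adjusted p = 0.0105 by edgeR). Tnf passed the low-count filter through PBS+TNF, and the libraries left out are those with low Tnf, so nothing is read from these p-values. For DEX+TNF against PBS+TNF the log2 fold change was -0.90 (SE 0.90, adjusted p = 0.746 by edgeR), and -0.49 and -0.50 without DEX+TNF 3 and 4 in turn.

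Csf1 (ENSMUSG00000014599, chromosome 3, 107648364 to 107667806, minus strand) encodes the growth factor of macrophages. It was at 0.343, 0.894, 1.39 and 0 CPM in PBS+PBS and at 1.73, 14.1, 10.97 and 19.0 CPM in PBS+TNF. The groups did not overlap, but PBS+TNF 1 lay close to the highest PBS+PBS library. Its log2 fold change was 3.99 (SE 0.92), against 6.20 (SE 1.25) for Tnf. In DEX+PBS it was at 0.364, 0.723, 0.573 and 0.867 CPM and in DEX+TNF at 17.6, 15.9, 0.612 and 2.24 CPM, so that the same pair of DEX+TNF libraries was high. The log2 fold change of DEX+TNF against DEX+PBS was 3.76 (SE 0.93, adjusted p = 0.103 by edgeR). It reached the threshold without DEX+TNF 3 (4.14, SE 0.81, adjusted p = 0.0125 by edgeR) and without DEX+TNF 4 (4.10, SE 0.90, adjusted p = 0.0262 by edgeR). For DEX+TNF against PBS+TNF it was -0.36 (SE 0.77, adjusted p = 0.903 by edgeR), and 0.03 and -0.02 without DEX+TNF 3 and 4 in turn, so its direction is not settled.

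Lif (ENSMUSG00000034394, chromosome 11, 4207557 to 4222514, plus strand) encodes leukaemia inhibitory factor, a cytokine of the interleukin-6 family. It was at 1.54, 0.638, 1.66 and 0.879 CPM in PBS+PBS and at 1.16, 3.74, 3.38 and 4.11 CPM in PBS+TNF, where library 1 alone stayed within the PBS+PBS range. DEX+PBS gave 1.21, 0.965, 1.03 and 0.969 CPM and DEX+TNF 3.15, 2.51, 0.306 and 1.60 CPM. Library 3 of DEX+TNF was thus the lowest of all 16. TNF gave a log2 difference of 1.40 (SE 0.54) after PBS and 0.87 (SE 0.55, adjusted p = 0.646 by edgeR) after DEX, and 1.20 (SE 0.46, adjusted p = 0.199 by edgeR) in the latter without DEX+TNF 3. Without DEX+TNF 4 it was 0.96 (SE 0.59). DEX+TNF against PBS+TNF gave -0.73 (SE 0.52, adjusted p = 0.628 by edgeR), and -0.39 and -0.65 without DEX+TNF 3 and 4 in turn.

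Il15 (ENSMUSG00000031712, chromosome 8, 83054226 to 83129874, minus strand) encodes a cytokine that maintains natural killer cells and intraepithelial lymphocytes. Its 213 counts gave 0.257, 0.830, 0.801 and 0.502 CPM in PBS+PBS, 0.385, 1.69, 1.55 and 2.13 CPM in PBS+TNF, 0, 0.663, 0 and 1.07 CPM in DEX+PBS and 1.13, 1.46, 0.715 and 0.598 CPM in DEX+TNF. As with Lif, PBS+TNF 2 to 4 lay above PBS+PBS and PBS+TNF 1 did not. TNF gave a log2 difference of 1.27 (SE 0.78) after PBS and 0.99 (SE 0.80, adjusted p = 0.763 by edgeR) after DEX. The latter was 1.10 and 1.17 without DEX+TNF 3 and 4 in turn. DEX+TNF against PBS+TNF gave -0.61 (SE 0.76, adjusted p = 0.804 by edgeR), and -0.50 and -0.42 without these libraries.

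Il17c (ENSMUSG00000046108, chromosome 8, 123148759 to 123150844, plus strand) encodes an interleukin-17 cytokine made by epithelia. It had no count in any PBS+PBS or DEX+PBS library, 0, 10, 4 and 2 counts in PBS+TNF 1 to 4 and 4, 5, 0 and 0 counts in DEX+TNF 1 to 4. These are at most 0.603 CPM. Against a floor of 3 counts over the group, the summed counts of PBS+TNF came to 5.13 times the floor of PBS+PBS after scaling. Those of DEX+TNF came to 2.92 times the floor of DEX+PBS. These ratios leave out counting error in the TNF groups and the spread between libraries. Both pairs of groups overlapped, with no count in 1 PBS+TNF and 2 DEX+TNF libraries. The scaled ratio of DEX+TNF to PBS+TNF was 0.579, with an exact 95% counting interval of 0.225 to 1.39. Of its 1185 exon bases, 423 (35.7%) lie opposite exons of Cyba, which encodes a subunit of the NADPH oxidases. Cyba itself stood at 8.57 to 30.9 CPM in PBS+PBS, 6.57 to 20.7 in DEX+PBS and 49.2 to 130 in PBS+TNF, and at 66.1, 72.3, 26.7 and 18.9 CPM in the DEX+TNF libraries. By CPM, Cyba was highest in PBS+TNF 1, where Il17c had no count. It was lowest of its group in PBS+TNF 2, where Il17c had the most. By counts, Cyba was instead lowest in PBS+TNF 1 (676, against 816, 1135 and 1012 in PBS+TNF 2 to 4). In DEX+TNF, both genes were higher in libraries 1 and 2 than in 3 and 4. What part Cyba reads had in the Il17c counts was not tested. Reads from either strand cannot be told apart.

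Tnfsf10 (ENSMUSG00000039304, chromosome 3, 27371033 to 27396576, plus strand) encodes TRAIL, which can kill cells that carry its death receptor. It was at 4.46, 4.28, 8.17 and 6.16 CPM in PBS+PBS and at 9.05, 5.55, 8.65 and 10.9 CPM in PBS+TNF. With DEX it was at 1.34, 1.99, 0.916 and 4.79 CPM in DEX+PBS and at 1.77, 3.23, 1.23 and 5.68 CPM in DEX+TNF. In both comparisons the libraries given DEX were lower except for library 4, which overlapped the range without DEX. Their difference was -1.30 on the log2 scale (SE 0.49, adjusted p = 1 by edgeR) in DEX+PBS against PBS+PBS and -1.49 (SE 0.48, adjusted p = 0.202 by edgeR) in DEX+TNF against PBS+TNF, so neither passed the correction. Without DEX+TNF 3 and 4 in turn the latter was -1.24 and -2.02. These comparisons share no library. For TNF it was 0.56 (SE 0.47) after PBS and 0.37 (SE 0.49, adjusted p = 0.915 by edgeR) after DEX, which became 0.61 without DEX+TNF 3 and -0.15 without DEX+TNF 4. Of the 8 tested genes, Tnfsf10 alone had fitted differences that were larger in size for DEX than for TNF in both arms.

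Pstpip2 (ENSMUSG00000025429, chromosome 18, 77877585 to 77971467, plus strand) encodes an adaptor that binds PEST-type phosphatases and is known in macrophages, where its loss in mice leads to autoinflammatory bone disease. It was at 7.03, 7.47, 5.23 and 8.79 CPM in PBS+PBS, at 61.5, 41.3, 47.2 and 40.3 CPM in PBS+TNF, at 8.98, 5.37, 7.90 and 5.97 CPM in DEX+PBS and at 22.3, 21.9, 10.003 and 8.88 CPM in DEX+TNF. All PBS+TNF libraries were above all others, and all DEX+TNF libraries were below all PBS+TNF libraries. Its decrease in DEX+TNF against PBS+TNF, a log2 fold change of -1.59 (SE 0.30), was known from earlier results on these data and is given as a description. The log2 fold change for TNF was 2.74 (SE 0.31) after PBS and 1.17 (SE 0.30, adjusted p = 0.122 by edgeR) after DEX. Without DEX+TNF 3 the latter was 1.33 (SE 0.30, adjusted p = 0.0265 by edgeR), and without DEX+TNF 4 it was 1.38 (SE 0.29, adjusted p = 0.0198 by edgeR). Unlike Icam1, Tnf and Csf1, Pstpip2 was below the PBS+TNF range in DEX+TNF 1 and 2 as well. Without DEX+TNF 3 the difference from PBS+TNF was -1.43 (SE 0.31), and without DEX+TNF 4 it was -1.39 (SE 0.29).

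**Figure D2:**
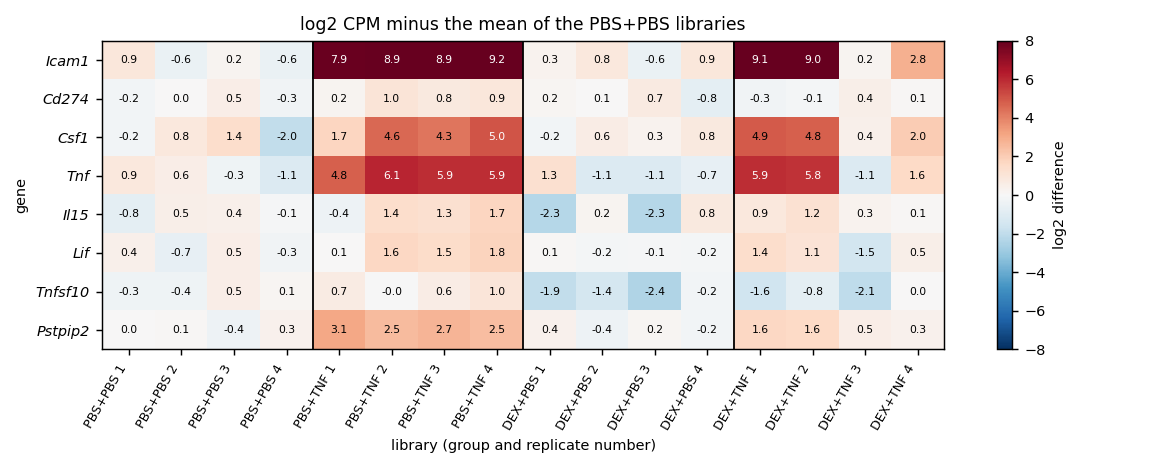
Each cell is the log2 CPM (prior count 2) of a gene (rows, the 8 tested genes) in a library (columns, 4 per group) minus the mean of the 4 PBS+PBS libraries, printed in the cell and coloured from blue (lower) to red (higher). The deepest red is reached by Icam1, which goes past the colour range. The red block of Icam1, Csf1, Tnf and Pstpip2 in PBS+TNF is seen again in DEX+TNF 1 and 2 and is much paler or absent in 3 and 4.

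Taking the 8 tested genes as a group, all had a higher fitted level in PBS+TNF than in PBS+PBS (47.4% of all tested genes had), with a median log2 fold change of 2.07 against -0.03. Icam1, Csf1, Tnf and Pstpip2 were called (4 of 8, against 12.5% of all genes), and the same 4 did not overlap between the groups (10.8% of all genes were higher without overlap). DESeq2 added Lif (17.5% of all genes called). These counts restate the choice of the genes, and nothing is read from them. After DEX, 7 of the 8 were higher with TNF (53.8% of all genes), with a median of 1.08 against 0.03 over all genes. Icam1 alone was called by edgeR, against 0.339% of all genes, and 4 had an unadjusted p under 0.05, against 10.4%. DESeq2, the other tool run, called Icam1, Csf1, Tnf and Pstpip2 (2.19% of all genes), as did edgeR without DEX+TNF 3 or without DEX+TNF 4. Without DEX+TNF 3 edgeR called 362 genes in all, the most with any library left out, against 40 with all libraries. Since Icam1 and Tnf passed the filter through PBS+TNF, nothing is read from these counts either.

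For DEX without TNF, edgeR called 0 of the 8, against 0.00847% of all genes. Tnfsf10 alone had an unadjusted p under 0.05 (1.9% of all genes), and DESeq2 called 0 of them (0.0593%). Levels were higher for 2 of the 8 (47% of all genes), and the median log2 fold change was -0.16, against -0.02 over all genes. In DEX+TNF against PBS+TNF, 0 of the 8 had a higher fitted level (53% of all genes had), with a median log2 fold change of -0.80 against 0.03. Without DEX+TNF 3 the number was 1 and the median -0.49, and without DEX+TNF 4 it was 0 with a median of -0.58. This direction rests in part on the PBS+TNF libraries that helped to choose the genes. Pstpip2, described above, was the 1 gene called (0.339% of all genes) and the 1 without overlap (2.91% of all genes were lower without overlap). DESeq2 called it alone as well (2.32%), and Tnfsf10 and Pstpip2 had an unadjusted p under 0.05 (11.9%). The edgeR call of Pstpip2 was lost without PBS+PBS 2, any of the PBS+TNF libraries, DEX+TNF 3 or DEX+TNF 4, while its log2 fold change stayed between -1.80 and -1.39 in all alternatives.

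Whether TNF acted differently after DEX was asked with the interaction, the TNF effect after DEX minus that after PBS. All 8 fitted differences were below 0 (54.3% of all genes were above it), with a median log2 of -0.41 against 0.05 over all genes. The TNF effect after PBS, which helped to choose the genes, is subtracted here, so this direction rests in part on that choice. The differences ran from -1.66 (SE 2.77) for Icam1 and -1.57 (SE 0.42) for Pstpip2 to -0.07 for Tnf. The direction did not hold throughout: without DEX+TNF 3 the differences of 3 of the 8 were above 0 (Tnf 0.35, Csf1 0.16 and Tnfsf10 0.05), and without DEX+TNF 4 those of 2 (Tnf 0.34 and Csf1 0.12). That of Tnf was above 0 in 6 of 22 alternatives and ranged from -1.45 to 2.00, and that of Il15 was above 0 in 2 of 21. Icam1, Cd274, Lif and Pstpip2 stayed below 0 in all alternatives run. EdgeR called 0 of the 8 and of all genes (0%), DESeq2 called 0 of the 8 (0.0762% of all genes), and 1 gene, Pstpip2, had an unadjusted p under 0.05, against 5.44% of all. The decrease of Pstpip2 in DEX+TNF was known beforehand, so nothing is read from this. With its SE, the interaction of Icam1 was measured with little precision, and its DEX+TNF group held both high and low libraries.

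**Figure D3:**
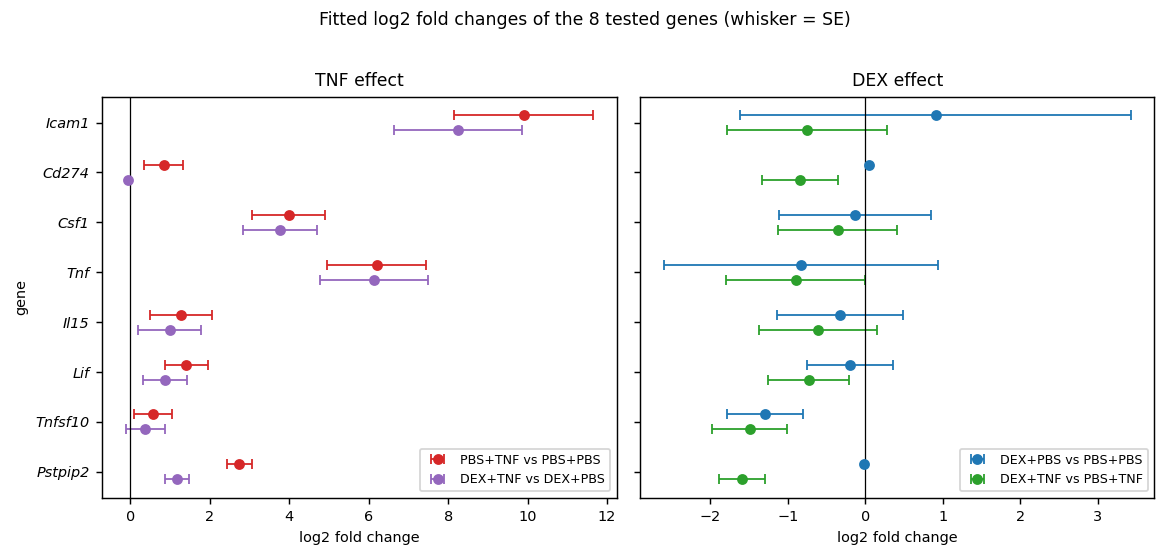
Fitted log2 fold changes (horizontal axes) of the 8 tested genes, with the SE as whisker, for TNF (left) and DEX (right), each without and with the other agent. No SE is drawn where the fold change is within 0.1 of 0. For TNF without and with DEX, Icam1 is at 9.90 and 8.24, Tnf at 6.20 and 6.13 and Csf1 at 3.99 and 3.76, with overlapping whiskers, and Pstpip2 is at 2.74 and 1.17 with whiskers apart.

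Levels of different genes were compared per kb of exon. In PBS+PBS the order was led by Pstpip2 (1.42 ± 0.294 CPM per kb, SD, n = 4) and Tnfsf10 (1.07 ± 0.335), whose ranges overlapped. Both lay clear of Lif (0.256 ± 0.108) and the 6 others, which overlapped their neighbours down to Icam1 (0.0183 ± 0.0245) and Il17c at 0. In PBS+TNF, Icam1 (19.6 ± 6.41 CPM per kb), Tnf (10.3 ± 3.50) and Pstpip2 (9.49 ± 1.95) formed the top of the order, each overlapping the next. A gap separated them from Csf1 (1.95 ± 1.24) and Tnfsf10 (1.58 ± 0.413). Tnfsf10 lay clear of Lif (0.672 ± 0.288), Cd274 (0.288 ± 0.0708), Il17c (0.207 ± 0.224) and Il15 (0.207 ± 0.107). Csf1, at 0.295 CPM per kb in its lowest library, overlapped each of these. Icam1 therefore went from the lowest of the genes with a count to the highest. The order in DEX+PBS was again led by Pstpip2 (1.41 ± 0.336), clear of Tnfsf10 (0.417 ± 0.323). In DEX+TNF it was that of PBS+TNF, from Icam1 (11.6 ± 13.3) to Il15 (0.140 ± 0.0567), but no neighbours were separated.

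**Figure D4:**
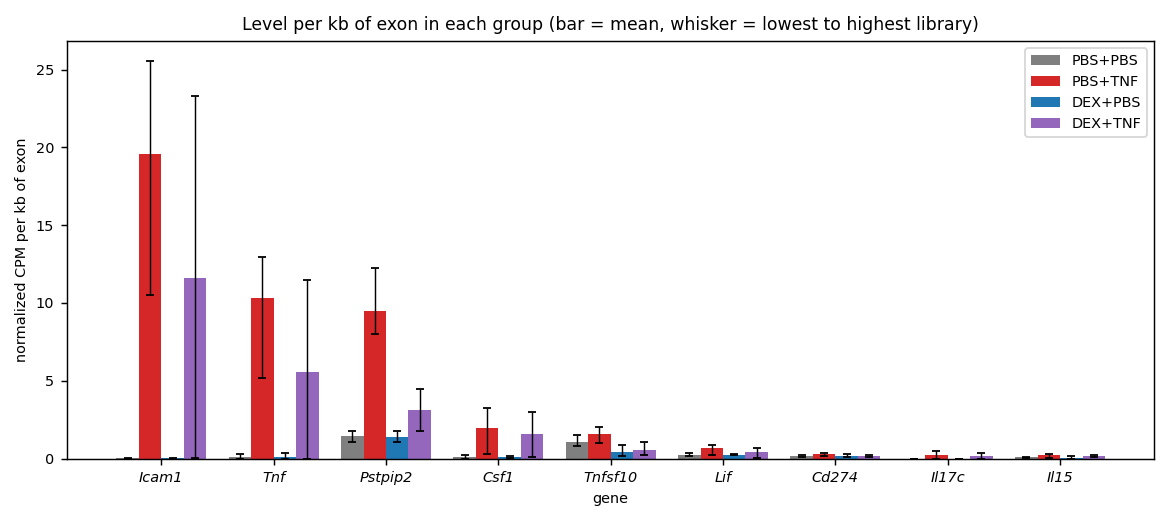
Mean normalized CPM per kb of exon (vertical axis, linear, from 0) of the 9 genes in the 4 groups, with whiskers from the lowest to the highest of 4 libraries. In PBS+TNF, Icam1 (19.6), Tnf (10.3) and Pstpip2 (9.49) stand above the rest, and the DEX+TNF whiskers of Icam1 and Tnf reach from near 0 into the PBS+TNF range.

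Across the 16 libraries, the log2 CPM of Icam1 correlated with that of Tnf (Pearson's r = 0.971), Csf1 (0.909) and Pstpip2 (0.906), while Cd274 did not exceed an r of 0.467 with any of the others. These are descriptions of libraries in 4 groups that share depth and treatment. The 3 genes outside the set that were most like Icam1 were Relb (0.990), an NF-kB subunit, Stx11 (0.989) and the bacterial lipoprotein receptor Tlr2 (0.986). Tnf was most like Mtmr14 (0.978), Ripk2 (0.975), a kinase downstream of NOD receptors, and Duox2 (0.973), an epithelial oxidase. Csf1 was nearest to Tjp3 (0.981), Sun2 (0.980) and Dab2ip (0.974). Pstpip2 was closest to the phosphatase Ptpn2 (0.977), Mfsd6l (0.970) and the guanylate-binding protein Gbp5 (0.964). The highest r was lower for Lif (Ext1, 0.916), Tnfsf10 (Gm45889, 0.857), Il15 (the chemokine Cx3cl1, 0.850) and Cd274 (Slc5a9, 0.778).

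Receptor genes for several of the 9 signals were barely counted in these cells. The chains of the ICAM-1 receptors had 7 counts for Itgal, 18 for Itgam and 0 for Itgb2 in all libraries together. The PD-1 gene Pdcd1 had 6 counts, the CSF-1 receptor gene Csf1r 10 and the interleukin-15 receptor chain Il2rb 0. Receptors for TNF, LIF, interleukin-15 and TRAIL were detected. Tnfrsf1a, which encodes TNF receptor 1, had group means of 68.8 to 92.7 CPM and did not change with TNF at the threshold after PBS (log2 fold change 0.43, SE 0.32, adjusted p = 0.431 by edgeR).

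The list of receptors and partners was drawn up with earlier results of these data known, so its p-values and calls are descriptions. Of 24 receptors and partners, 15 were tested, and 8 rose in PBS+TNF against PBS+PBS (12.5% of all tested genes were called), with a median log2 fold change of 1.49 over the 15. The count fell to 5 without PBS+PBS 2. They included Tnfrsf11b, a decoy receptor that binds TRAIL (log2 fold change 4.92, SE 1.12, adjusted p = 0.0086 by edgeR), and Tnfrsf1b, which encodes TNF receptor 2 (3.38, SE 0.60, adjusted p = 0.00229 by edgeR), which went from 4.06 ± 1.65 to 42.8 ± 16.9 CPM (SD, n = 4). Il6st, the gp130 chain of the LIF receptor, rose by 2.36 on the log2 scale (SE 0.62, adjusted p = 0.0192 by edgeR), from 28.4 ± 13.3 to 146 ± 66.6 CPM. Its partner Lifr gave -0.34 (SE 0.46, adjusted p = 0.703 by edgeR). Il15ra, which presents interleukin-15, rose by 2.08 (SE 0.42, adjusted p = 0.00467 by edgeR), and Tnfrsf10b, the TRAIL death receptor, by 2.02 (SE 0.51, adjusted p = 0.0158 by edgeR). The phosphatase Ptpn12, a partner of PSTPIP proteins, rose by 1.53 (SE 0.35, adjusted p = 0.00915 by edgeR), as did Rhbdf2 and Rhbdf1, which escort the enzyme that sheds TNF (1.49 and 1.38). After DEX edgeR called 0 of the 15 (0.339% of all genes), and DESeq2 called 4 (2.19%). Of the 15, 13 were above 0 (53.8% of all genes) and 7 had an unadjusted p under 0.05 (10.4%), with a median of 0.85. EdgeR called 5 without DEX+TNF 3, where it called 362 genes in all (40 with all libraries), and 3 without DEX+TNF 4.

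**Figure D5:**
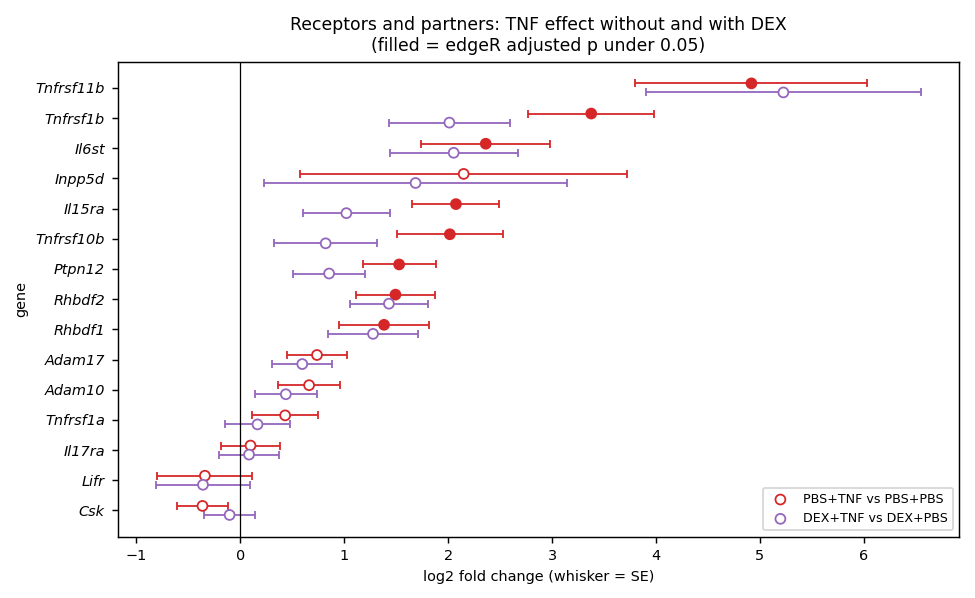
Log2 fold changes (horizontal axis, whisker = SE) of the 15 tested receptors and partners for TNF without DEX (red) and with DEX (purple), ordered by the former. Filled points passed an edgeR adjusted p of 0.05: 8 without DEX, from Tnfrsf11b (4.92) to Rhbdf1 (1.38), and 0 with DEX.

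Relatives of the 9 genes gave a mixed picture. Their lists, here and in the next paragraphs, were also drawn up with earlier results known. P-values and calls in them are descriptions. Among 23 other adhesion molecules, some of them epithelial, such as Epcam, 11 were tested and 5 rose with TNF after PBS (median 0.63), against 12.5% of all genes. The count fell to 2 without PBS+PBS 1, PBS+PBS 2 or PBS+TNF 4. The leading ones were Cd47, the "do not eat me" signal to macrophages (log2 fold change 1.93, SE 0.27, adjusted p = 0.000663 by edgeR), the hyaluronan receptor Cd44 (1.78, SE 0.53, adjusted p = 0.0349 by edgeR) and the junction molecule F11r (1.49, SE 0.33, adjusted p = 0.00758 by edgeR). Cd47 was also the 1 called after DEX (1.33, SE 0.27, adjusted p = 0.0456 by edgeR), against 0.339% of all genes, with a median of 0.39 over the 11. Without DEX+TNF 3 or without DEX+TNF 4, 2 were called, and the former fit called 362 genes in all (40 with all libraries). The kin of Icam1 were barely counted, with 2 counts for Icam2, 4 for Icam4, 13 for Icam5 and 7 for Vcam1 in all libraries.

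Of 27 other checkpoint and costimulatory genes, not all of them ligands, 15 were tested and 5 rose after PBS (median 0.25, against 12.5% of all genes called). They were led by Ido1, an enzyme that breaks down tryptophan (3.90, SE 1.01, adjusted p = 0.0175 by edgeR), Icosl, the ligand of the T cell receptor ICOS (3.58, SE 0.62, adjusted p = 0.00203 by edgeR), and Pvr (1.60, SE 0.50, adjusted p = 0.045 by edgeR). Icosl rose from 1.05 to 13.2 CPM on average, in contrast to Cd274. Pdcd1lg2, the neighbour of Cd274 that encodes PD-L2, had no count. Of these 15 edgeR called 0 after DEX (0.339% of all genes) and DESeq2 called 1 (2.19%). Their median was 0.33, and 5 had an unadjusted p under 0.05 (10.4% of all genes). EdgeR called 3 without DEX+TNF 3, where it called 362 genes in all (40 with all libraries), and 2 without DEX+TNF 4. After PBS the count fell from 5 to 2 without PBS+PBS 1, PBS+PBS 2 or PBS+TNF 4.

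Among 16 other TNF superfamily ligands, 5 were tested and Tnfsf9, the ligand of 4-1BB, rose after PBS (2.22, SE 0.57, adjusted p = 0.0163 by edgeR), where 12.5% of all genes were called. This call was lost without PBS+PBS 2, without PBS+TNF 2 and among genes of at least 5 CPM on average. Lta, beside Tnf on chromosome 17, had 25 counts in all and Ltb 30. EdgeR and DESeq2 called 0 of the 5 after DEX (0.339% and 2.19% of all genes), with 1 at an unadjusted p under 0.05 (10.4%). Of 40 other cytokines, 7 were tested. Both tools called 0 of these with TNF after PBS (12.5% of all genes by edgeR and 17.5% by DESeq2) and after DEX (0.339% and 2.19%). In each arm 2 had an unadjusted p under 0.05, against 10.4% of all genes after DEX, and the medians were 1.16 and 0.51. Leaving out single libraries gave 0 to 2 calls after PBS, with 2 without PBS+PBS 3 or DEX+TNF 3, and 0 to 1 after DEX. Over all genes these fits called 916 to 1698 after PBS and 0 to 362 after DEX. Over the 5 lists, 53 genes outside the set were tested, and edgeR called 0 of them for DEX without TNF, for DEX+TNF against PBS+TNF and for the interaction. Of all genes it called 0.00847%, 0.339% and 0%. At an unadjusted p under 0.05 these counts were 1, 8 and 1 (1.9%, 11.9% and 5.44% of all genes). DESeq2 called 0, 1 and 0 (0.0593%, 2.32% and 0.0762%).

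Protein-coding genes within 50 kb of the 9 numbered 36, of which 19 were tested and 4 were called in PBS+TNF against PBS+PBS, all higher, where 12.5% of all genes were called. These were Cyba (log2 fold change 2.31) and Mvd (1.75) beside Il17c, Tbc1d10a (1.54) beside Lif and Ddx39b (0.55) beside Tnf. The tested neighbours of Icam1, Mrpl4 (-0.11) and S1pr2 (0.62), were not called.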

How the data were processed

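Stranded mRNA libraries were made from RNA of sorted Paneth cells, per the labels. The deposited values are raw counts of reads per Ensembl gene. The submitters' notes name FastQC 0.12, STAR 2.7.10a, DESeq2 and the mm39 genome. The counting program and its use of strand are not given in the sources used here, so overlapping genes are uncertain. GENCODE M39 named 54749 of 55414 identifiers, and the other 665 took 0.00519% of counts.

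After filterByExpr and TMM scaling, group means were fitted on all 16 libraries in edgeR 4.0.16 (robust quasi-likelihood, two-sided, R 4.3.3). For each of 5 contrasts, p-values were Benjamini-Hochberg adjusted over all tested genes and called under 0.05. Contrasts share groups. SEs came from the F statistic. The test was checked on simulated data. Alternatives were 2 other scalings, no filter or at least 5 CPM on average, DESeq2 1.42.0, the compared groups alone, a replicate block and each library left out. The study describes its sequenced samples as cells of individual mice, and the labels call these libraries biological replicates. The p-values measure the spread between libraries.

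The members and the 5 gene lists were chosen with earlier results of these data known, so p-values and calls of list genes are descriptions. Other named genes were the 3 most correlated with each member, the 3 largest called changes per list and TNF contrast (mean of at least 1 CPM), receptors, partners and neighbours within 50 kb. Nfkbia and genes named for having few counts were chosen after their values were seen.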

Additional observations from a re-analysis of the deposited data

Results flagged for a closer look

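Among 32 sets of 4 libraries (8 genes in 4 groups), 2 had a library whose gap to its nearest neighbour exceeded Dixon's 95% limit for the range, and chance flags about 1 in 20 such sets. Both concern PBS+TNF 1, the library with the lowest scaling factor (0.418) and effective size, where 1 count is worth 0.193 CPM. Tnf was 8.48 CPM there and 18.9 to 21.3 CPM in the other PBS+TNF libraries, a gap of 0.871 of the log2 range. Lif was 1.16 CPM there and 3.38 to 4.11 CPM in the others, a gap of 0.840 of the range. The cause was not tested.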

How the results depend on the processing

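No value called in the analysis as reported changed sign, but uncalled log2 differences of the genes did. With libraries left out in turn, DEX+PBS against PBS+PBS ran from -0.26 to 0.33 for Cd274, -0.45 to 0.49 for Csf1, -1.17 to 0.017 for Il15, -0.41 to 0.024 for Lif and -0.15 to 0.094 for Pstpip2. DEX+TNF against PBS+TNF ran from -0.89 to 0.026 for Csf1, and DEX+TNF against DEX+PBS from -0.32 to 0.26 for Cd274 and -0.15 to 1.07 for Tnfsf10. The interaction ran from -0.84 to 0.16 for Csf1, -0.70 to 2.00 for Tnf, -0.63 to 0.57 for Il15 and -0.72 to 0.50 for Tnfsf10. DESeq2 gave -0.014 for Cd274 in DEX+PBS against PBS+PBS and the replicate block 0.20 for the Il15 interaction. The 4 calls among the genes in PBS+TNF against PBS+PBS restate their choice, and DESeq2 and leaving out DEX+TNF 3 added Lif. Leaving out each library in turn gave 4 to 5 members and 916 to 1698 genes called in that contrast, 0 members and 0 to 2 genes for DEX+PBS against PBS+PBS, 0 to 1 members and 0 to 102 genes for DEX+TNF against PBS+TNF, 0 to 4 members and 0 to 362 genes for DEX+TNF against DEX+PBS, and 0 members and 0 to 1 genes for the interaction. Main gene counts were 1476, 1, 40, 40 and 0. In DEX+TNF against DEX+PBS, members called numbered 4 with DESeq2 and 0 without the filter, with the replicate block and with only the 2 groups. Genes called numbered 259, 6, 0 and 0 in these, and Icam1, Tnf and Cd274 were not tested with only the 2 groups. In DEX+TNF against PBS+TNF, genes called were 274 with DESeq2, 16 with the block and 0 with 2 groups, where 0 members were called. DESeq2 called 7 genes for DEX+PBS against PBS+PBS and 9 for the interaction. Replicate numbers were not taken to pair the libraries in the main fit, and the replicate block was an alternative. Deviations of same-numbered libraries correlated at -0.365 to 0.504, above 0.1 in 12 of 24 pairs (median 0.115). Pairs with other numbers were above 0.1 in 20 of 72 (median -0.061), and 7 of 16 libraries were closest to their own number. These values lean towards some likeness by number and do not exclude pairing. Cd274, Il15 and Il17c rest on 178, 213 and 25 counts.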
